A study of Mus musculus with 3 samples.

Results

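The liver of mice that received thyroid hormone on a western diet with fructose was compared with the liver of mice on normal chow. Of 35275 genes listed, the 11474 with at least 1 FPKM (fragments normalised to gene length and library size) in either of these 2 libraries were compared. The control library came from untreated male C57BL/6J mice on normal chow. The library of TH-treated NASH came from male mice of the same strain, also 10 weeks old when the diets began. These mice ate the western diet with liquid fructose for 16 weeks and then, for 8 weeks, also received T3 (35 ng/g, per the labels) and T4 (7 ng/g) in drinking water with 15% fructose. The remaining library, NASH (nonalcoholic steatohepatitis), came from untreated male mice on the same diet, its label naming 24 weeks, and was used to divide the genes that differed. Each group is 1 library, so no difference has a replicate check and no test between groups was run. Whether a library is 1 mouse or a pool is not stated in the labels, nor is the age of the control mice at collection. TH-treated NASH differs from control in both diet and hormone, and these cannot be told apart in the comparison itself. At the edge of the 1 FPKM rule, Tsacc (0.397 FPKM in control, 1.001 in TH-treated NASH) was kept and Zfp446 (0.983 and 0.999) was not.

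Thyroid hormone acts in hepatocytes mainly through the nuclear receptor THRB, which switches on genes such as the deiodinase Dio1 and the lipogenic regulator Thrsp, and speeds the turnover of cholesterol and fatty acids. Diets rich in fat and fructose load the liver with triglyceride, draw in macrophages and activate the stellate cells that lay down collagen. In mice, many hepatic cytochrome P450, sulfotransferase and major urinary protein genes also differ between the sexes, a difference set largely by the rhythm of growth hormone secretion.

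The libraries held 54576236 (control), 47009255 (NASH) and 38303410 (TH-treated NASH) fragments on genes, which left genes near 1 FPKM with medians of 116 to 155 fragments. Hepatocyte markers were abundant in all 3, with Apoa1, an apolipoprotein, at 7434 to 10408 FPKM. Transcripts matched the labelled male sex: Ddx3y stood at 13.4 to 17.3 FPKM, Eif2s3y at 15.8 to 17.1 FPKM and Xist at no more than 0.0113 FPKM. Of the fat and pancreas markers, Adipoq, Lep, Retn, Prss2 and Pnlip had at most 4 fragments in any library, while Cela1, an elastase, stood at 17.5, 10.8 and 56.9 FPKM in control, NASH and TH-treated NASH. Gene length moved with the ratio. Among 5 equal classes of genes by length, in the shortest (27 to 1508 bases) the median log2(FPKM + 1) difference, TH-treated NASH minus control, was 0.31, and in the longest (4627 to 26901 bases) −0.04, whereas the NASH minus control medians of the same classes were 0.11 and 0.06. The part of gene length in the results below was not tested beyond the recount given with the totals.

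**Figure D1:**
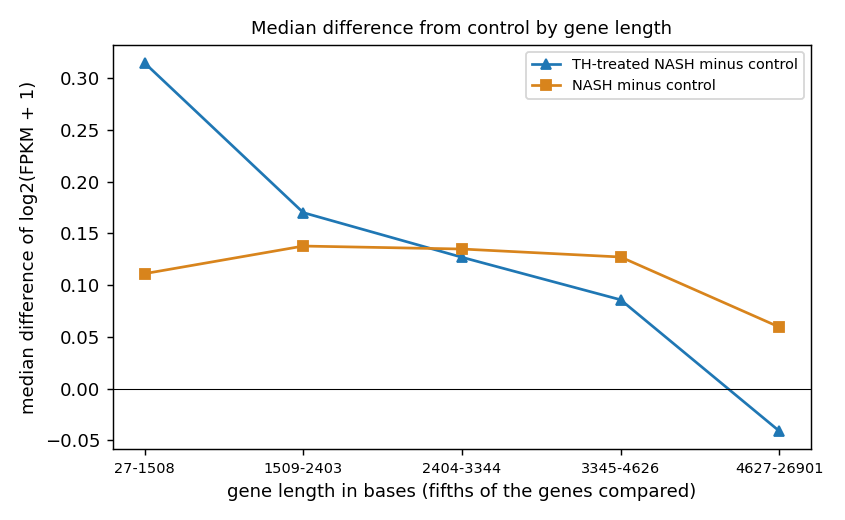
Median difference of log2(FPKM + 1) from control (y axis) in 5 equal classes of the genes compared, by gene length in bases (x axis), for TH-treated NASH (triangles) and NASH (squares), 1 library each. The triangles run from 0.31 in the shortest class to −0.04 in the longest, and the squares from 0.11 to 0.06.

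TH-treated NASH stood away from control at 917 of the 11474 genes (7.99%) from 2-fold on the log2(FPKM + 1) scale, 639 higher (5.57%) and 278 lower (2.42%). The median difference over all genes compared was 0.12. Here "off" means past 2-fold from control on that scale, which understates the fold of low genes, while a fold given for a single gene is the ratio of its FPKM values. Brackets after a fold hold a 95% interval from fragment counts, which treats fragments as independent molecules and leaves out any difference between animals. The calls that were higher made up 69.7% as deposited, 55.2% after median-of-ratios scaling (486 higher, 394 lower), 53.8% after TMM scaling (474 and 407) and 51.2% after centring by gene length (434 and 413). The median difference of all genes then shifted to −0.04, −0.05 and 0.00. The 0.00 was set in advance, because centring subtracts the median of genes of like length, which also moves the balance of calls. Against these totals, NASH itself was off at 383 genes higher (3.33% of 11499) and 89 lower (0.774%).

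Both ratios use the same control library, so the 2 sets of calls are not independent, and each gene is described by its values in the 3 libraries. Of the 639 genes higher in TH-treated NASH, 200 were also off the same way in NASH ("remained"), 157 lay between 1.5-fold and 2-fold higher there, 258 stood within 1.5-fold of control there ("only in the treated liver") and 24 were past 1.5-fold lower there ("turned over"). Of the 278 lower genes, 34 remained lower, 41 were between 1.5-fold and 2-fold lower in NASH, 186 were lower only in the treated liver and 17 had turned over. Seen from the diet, 200 of the 383 genes higher in NASH remained off, 69 were still 1.5-fold to 2-fold higher, 103 lay within 1.5-fold of control and 11 were past 1.5-fold lower. Among the 89 genes lower in NASH the same counts were 34, 14, 23 and 18. Of the 383 genes, 54 were below 1 FPKM in both control and TH-treated NASH.

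**Figure D2:**
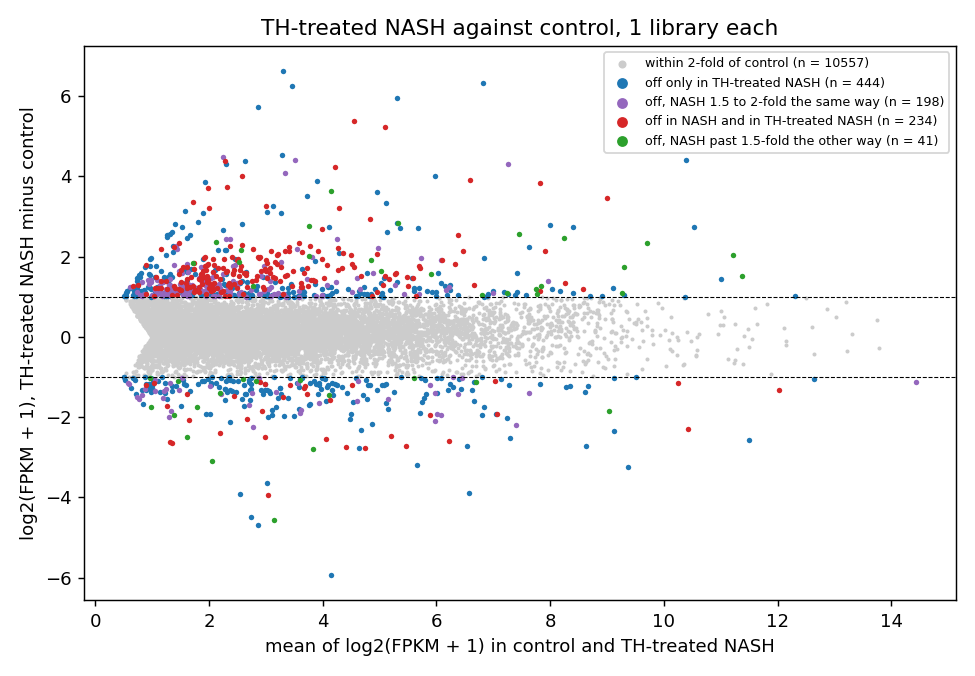
Each point is 1 of the 11474 genes, with the mean log2(FPKM + 1) of control and TH-treated NASH on the x axis and the difference, TH-treated NASH minus control, on the y axis; dashed lines mark 2-fold. Colours divide the 917 genes past 2-fold by their position in NASH, with 258 higher and 186 lower only in TH-treated NASH and 200 higher and 34 lower in both.

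The 10 named genes that remained higher had varied roles. Cyp17a1, the steroid 17-hydroxylase, stood at 4.57 (control), 14.5 (NASH) and 207 FPKM (TH-treated NASH), 45.3-fold above control (41.2 to 49.8). The control value was the lowest and the treated value far above both others. Marco, a scavenger receptor of macrophages, stood at 3.30, 22.3 and 79.2 FPKM in the same order, 23.99-fold above control (21.5 to 26.8). In bulk liver, more cells of a type and more RNA per cell cannot be told apart. Lcn2, the iron-binding lipocalin released in inflammation, followed the same order at 24.02, 58.3 and 372 FPKM, 15.5-fold higher (14.7 to 16.2). Apoa4, an apolipoprotein of triglyceride-rich particles, and Ly6d, a surface antigen, took another order, with NASH highest. Apoa4 read 155, 2919 and 1701 FPKM and Ly6d 0.493, 58.6 and 23.2 FPKM, so that treated liver still lay 11-fold (10.8 to 11.2) and 47.1-fold (30.2 to 77.6) above control. Orm3, an orosomucoid, was level between the diet libraries at 23.2 and 23.9 FPKM against 1.61 in control.

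Further genes of this kind were low in control and rest there on few fragments. Cdkn1a, the cell cycle inhibitor p21, stood at 0.365, 6.34 and 17.1 FPKM, 46.9-fold above control (34.0 to 66.6). Ntrk2, the receptor of brain-derived neurotrophic factor, stood at 0.0343, 3.67 and 9.54 FPKM, 278-fold above control (171 to 487) on 16 control fragments. Sult1e1, which sulfates oestrogens, lay 131-fold above control (63.3 to 327), where it had 7 fragments, and Cyp2a4, a female-biased hydroxylase that shares reads with close relatives, 333-fold above (153 to 910), where it had 6. For all 4 of these genes TH-treated NASH was the highest library. Of the 200 genes, 143 were further from control in TH-treated NASH than in NASH and 57 closer.

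The named genes that remained lower included enzymes of drug, glutathione and steroid metabolism. Etnppl, which breaks down phosphoethanolamine, stood at 31.2 (control), 9.01 (NASH) and 1.08 FPKM (TH-treated NASH), 28.8-fold below control (23.9 to 35.1). Gstp1, a glutathione S-transferase, stood at 3047, 1013 and 622 FPKM, 4.90-fold lower (4.82 to 4.97), and its near copy Gstp2, which can share its reads, at 11.9, 4.03 and 2.14. The carboxylesterases Ces2a (183, 81.0 and 29.3 FPKM) and Ces1b (39.3, 19.1 and 5.87) and the hydroxylase Cyp2c54 (112, 50.8 and 16.1) showed the same descending order. Hsd3b5, a male-biased steroid dehydrogenase, differed in that the diet libraries lay close together at 36.6 and 28.9 FPKM, against 115 in control. Clec2h, a C-type lectin, had 1 fragment in TH-treated NASH against 634 in control, 445-fold lower (79.6 to 17602). The remaining names of this group were Keg1 at 7.49-fold and the aldo-keto reductase Akr1c19 at 7.44-fold below control.

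**Figure D3:**
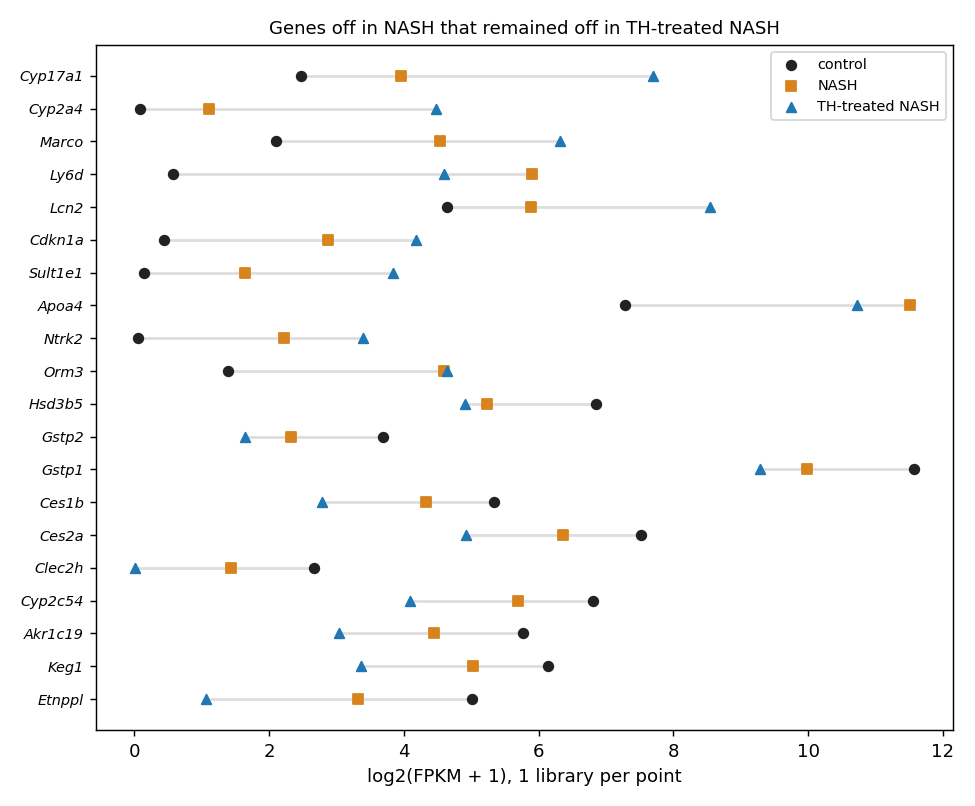
Log2(FPKM + 1) of 10 genes that remained higher and 10 that remained lower than control, 1 row per gene, with 1 point per library (circle control, square NASH, triangle TH-treated NASH). In Apoa4 and Ly6d the triangle lies between circle and square, and in Cyp17a1, Marco, Lcn2 and Etnppl it lies beyond the square.

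Genes off only in the treated liver were led, on the higher side, by members of the Cyp3a and Mup clusters. Cyp3a44, a female-biased hydroxylase, had no fragment in control or NASH and stood at 97.4 FPKM in TH-treated NASH, at least 3477-fold higher, taking 3 counts as the floor of the control library. Cyp3a16 stood at 51.9 FPKM against no control fragment, at least 1633-fold higher, and Cyp3a41a at 7.85 FPKM, at least 293-fold higher. In the same cluster Cyp3a11, which metabolises drugs and bile acids, stood at 1252 (control), 1006 (NASH) and 246 FPKM (TH-treated NASH), 5.08-fold lower. The summed level of the 9 Cyp3a genes was 1675, 1326 and 622 FPKM, so the sum was lower while 4 members were higher. To show how alike these genes are where transcription starts, the 250 bases upstream of each start are given from RefSeq (GRCm38.p6, minus strand, 5′ to 3′), with capitals marking bases that differ from Cyp3a11 or are inserted in a pairwise alignment to it. They lie at chr5:145879855-145880104 (Cyp3a11), chr5:145469724-145469973 (Cyp3a16), chr5:145720137-145720386 (Cyp3a41a) and chr5:145805875-145806124 (Cyp3a44).
Cyp3a11: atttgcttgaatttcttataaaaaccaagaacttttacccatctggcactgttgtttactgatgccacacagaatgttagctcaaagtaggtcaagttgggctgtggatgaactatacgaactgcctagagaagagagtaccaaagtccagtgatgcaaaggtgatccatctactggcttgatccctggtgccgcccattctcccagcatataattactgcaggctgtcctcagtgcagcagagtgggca
Cyp3a16: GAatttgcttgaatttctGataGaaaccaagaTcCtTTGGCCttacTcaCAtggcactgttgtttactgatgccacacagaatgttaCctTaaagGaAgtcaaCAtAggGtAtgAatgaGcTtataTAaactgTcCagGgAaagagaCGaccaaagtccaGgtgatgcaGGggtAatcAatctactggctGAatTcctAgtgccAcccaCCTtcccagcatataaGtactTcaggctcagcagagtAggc
Cyp3a41a: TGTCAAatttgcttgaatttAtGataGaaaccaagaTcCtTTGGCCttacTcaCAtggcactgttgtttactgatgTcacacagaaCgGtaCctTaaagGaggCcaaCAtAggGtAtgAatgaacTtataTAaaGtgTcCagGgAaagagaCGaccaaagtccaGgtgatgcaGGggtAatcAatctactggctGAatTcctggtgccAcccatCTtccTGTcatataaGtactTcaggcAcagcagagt
Cyp3a44: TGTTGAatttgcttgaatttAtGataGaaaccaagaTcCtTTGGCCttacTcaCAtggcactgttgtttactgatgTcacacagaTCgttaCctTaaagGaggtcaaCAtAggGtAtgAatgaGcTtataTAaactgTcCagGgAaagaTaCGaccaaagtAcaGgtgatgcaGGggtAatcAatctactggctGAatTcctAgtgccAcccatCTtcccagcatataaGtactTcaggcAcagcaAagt
Cyp3a44 and Cyp3a41a were the same at 94.4% of aligned positions and Cyp3a44 and Cyp3a16 at 92.9%, against 76.2% for Cyp3a16 and 71.7% for each of the others with Cyp3a11. The nuclear receptor hexamer AGGTCA, searched on both strands, was in the Cyp3a11 and Cyp3a44 windows and in 14.0% of all 32851 promoters of that length. The thyroid hormone receptor repeat (AGGTCA, any 4 bases, AGGTCA) and the STAT5 motif TTCNNNGAA were in none of the 4 windows and in 0.0152% and 7.02% of all. The repeat contains the hexamer. These are matches of letters, and genes this alike can share reads, so the split among Cyp3a16, Cyp3a41a and Cyp3a44 is uncertain.

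Major urinary protein genes, which encode pheromone carriers, went both ways in the treated liver. Mup9 stood at 11.6 (control), 9.59 (NASH) and 1009 FPKM (TH-treated NASH), 87.1-fold above control (80.2 to 94.7). Mup17 stood at 290, 386 and 6198 FPKM, 21.4-fold higher, with Mup13 at 367-fold (219 to 673) and Mup18 at 76.4-fold above control. In contrast Mup21 stood at 368, 340 and 23.8 FPKM, 15.5-fold lower (14.3 to 16.8), and Mup20 at 7015, 10157 and 1177 FPKM, 5.96-fold lower. Of 31 Mup genes and pseudogenes compared, 17 were off higher and 4 lower, against 5.57% and 2.42% of all genes compared. A member below 1 FPKM in control was compared only if TH-treated NASH reached 1 FPKM, which favours higher values. The median difference of the family was 1.47 as deposited and 0.26 with no filter. The sum over all 51 was 20061, 19359 and 22323 FPKM, so the sum moved far less than its members. Reads of close Mup copies cannot be assigned with certainty.

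Outside these clusters, Igfbp1, which binds insulin-like growth factors and is held down by insulin, stood at 14.7, 14.4 and 252 FPKM in control, NASH and TH-treated NASH, 17.1-fold above control (16.2 to 18.2). Control and NASH were level for this gene. Akr1c18, which inactivates progesterone, stood at 0.106, 0 and 20.9 FPKM, 197-fold higher (95.1 to 490) on 7 control fragments. Crybb3, a crystallin, was 76.4-fold higher (52.6 to 115) at 27.6 FPKM. Fndc5, the precursor of irisin, was 34.8-fold higher (25.6 to 48.3) at 9.91 FPKM, and Ppp1r3g, a glycogen-targeting subunit of protein phosphatase 1, 13-fold higher (11.3 to 14.9) at 22.8 FPKM. Lepr, the leptin receptor, stood at 0.899, 1.65 and 10.98 FPKM, 12.2-fold higher (10.8 to 13.9), and Cux2, a female-biased repressor, at 0.0813, 0.0252 and 1.41 FPKM, 17.3-fold higher (11.9 to 26.0).

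Genes lower only in the treated liver included male-biased hydroxylases and enzymes of detoxification. Cyp4a12a and Cyp4a12b, near copies that hydroxylate fatty acids, stood at 137 and 30.8 FPKM in control, 104 and 36.7 in NASH, and 1.26 and 0.414 in TH-treated NASH. They lay 109-fold (90.8 to 132) and 74.4-fold (54.1 to 105.2) below control, with NASH near control for both. Ddah1, which breaks down methylated arginines, stood at 36.1, 47.2 and 0.437 FPKM, 82.6-fold lower (64.5 to 108). Slc39a4, a zinc importer, stood at 21.9, 16.8 and 0.505 FPKM, 43.3-fold lower (32.1 to 60.0). Car3, a carbonic anhydrase of liver, muscle and fat, was 9.56-fold lower from 2033 FPKM in control to 213. Cyp2c44 was 9.75-fold lower (9.19 to 10.4), Ces1g 7.55-fold lower, the male-biased Cyp2d9 6.61-fold lower and Gsta2, a glutathione S-transferase, 21.5-fold lower (15.9 to 29.9). By the rule for this group, NASH lay within 1.5-fold of control in each of these and the treated library stood alone.

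**Figure D4:**
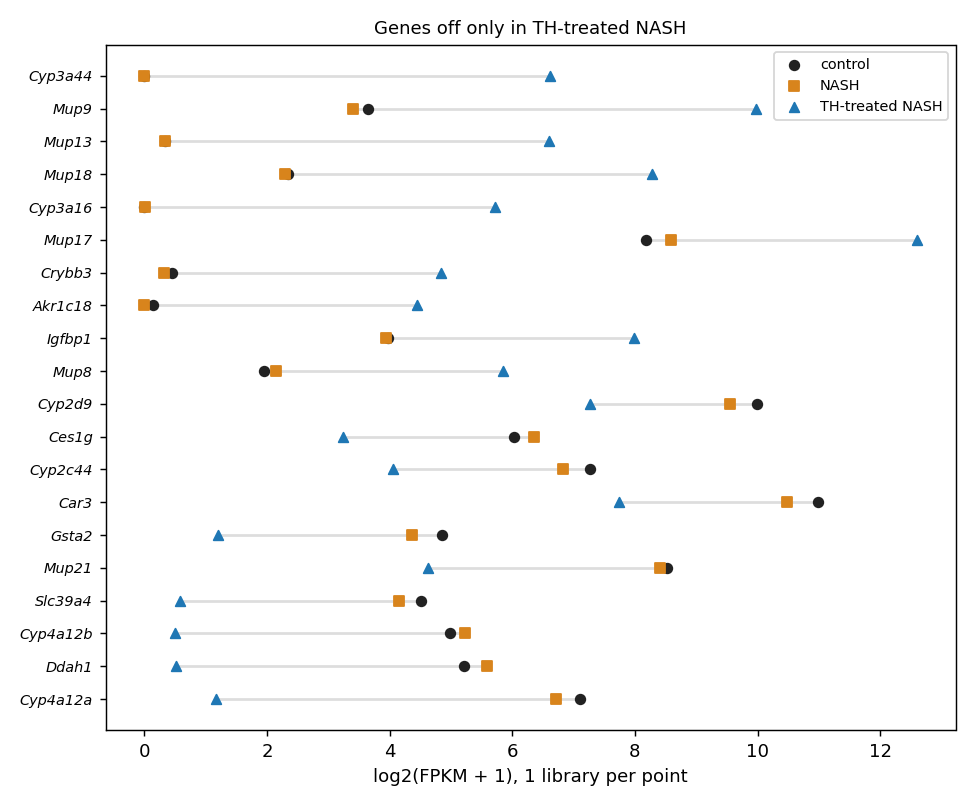
Log2(FPKM + 1) of the 10 highest and 10 lowest named genes that were off only in TH-treated NASH, 1 row per gene and 1 point per library (circle control, square NASH, triangle TH-treated NASH). The rows were chosen for NASH within 1.5-fold and TH-treated NASH past 2-fold of control. That circle and square lie together, with the triangle apart, follows from this choice.

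A smaller group had turned over, lying on one side of control in NASH and on the other in TH-treated NASH. Prtn3, a protease of neutrophil granules, stood at 4.04 (control), 1.04 (NASH) and 61.2 FPKM (TH-treated NASH), 15.2-fold above control (13.2 to 17.4). Mt2, a metallothionein, read 128, 64.6 and 706 FPKM and the serum amyloid gene Saa2 1176, 263 and 4817 FPKM, so that treated liver was 5.52-fold and 4.10-fold above control. Lpin1, a phosphatidate phosphatase and coactivator raised in fasting, stood at 13.9, 8.67 and 55.2 FPKM, and the trefoil peptide gene Tff3 at 14.0, 5.61 and 106 FPKM. On the lower side, Hsd17b6, a steroid dehydrogenase, stood at 42.0, 66.5 and 0.825 FPKM, 50.9-fold below control (37.8 to 70.2). Abcc3, a bile acid and conjugate exporter, stood at 36.2, 58.9 and 4.38 FPKM, 8.27-fold lower (7.70 to 8.88). Serpina7, which encodes thyroxine-binding globulin, stood at 27.5, 60.8 and 9.43 FPKM, 2.92-fold lower (2.71 to 3.15), and the adipogenic receptor Pparg at 6.43, 10.5 and 1.84 FPKM, 3.49-fold lower (2.89 to 4.25). Cfd, the complement factor adipsin, stood at 2.64, 44.2 and 0.0849 FPKM, 31.1-fold below control (10.4 to 153) on 3 treated fragments.

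In all, 126 genes off in NASH lay within 1.5-fold of control in TH-treated NASH, 103 from the higher side and 23 from the lower. Of the 103, 43 were below 1 FPKM in both control and TH-treated NASH and so could not differ 2-fold between them on this scale. Cidec, which enlarges lipid droplets, stood at 6.70, 77.5 and 7.74 FPKM, 1.16-fold above control (1.03 to 1.30), and its relative Cidea at 0.346, 43.5 and 1.05 FPKM, still 3.04-fold above control (1.80 to 5.30) on 22 and 47 fragments. Scd1, the stearoyl-CoA desaturase, read 1786, 6747 and 2514 FPKM and the type I collagen gene Col1a1 1.31, 6.81 and 1.23 FPKM. Treated liver lay 1.41-fold above control for Scd1 and 1.06-fold below it (0.913 to 1.24) for Col1a1. From the lower side, Enho, which encodes adropin, stood at 30.03, 1.01 and 43.9 FPKM, Asns, asparagine synthetase, at 6.22, 1.16 and 9.27 FPKM, and Cyp7b1, an oxysterol hydroxylase, at 183, 62.2 and 200 FPKM. These treated values were 1.46-fold, 1.49-fold and 1.09-fold above control.

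Gene lists were described by the number of members past 1.5-fold of control on the log2(FPKM + 1) scale, against 15.8% of all genes higher and 6.98% lower. A member below 1 FPKM in control was counted only because TH-treated NASH reached 1 FPKM, which favours higher values. Of 27 genes in the thyroid hormone list, 10 stood higher and 2 lower, or 8 higher of the 25 at 1 FPKM or more in control. The median difference was 0.34 against 0.12 for all genes. The summed level of the list was lower after treatment, at 9589 (control), 12266 (NASH) and 4472 FPKM (TH-treated NASH), and 1 member was past 2-fold lower only in the treated liver. Such a sum follows the most abundant members. With 10 members higher and 2 lower, it does not describe the list as a set. Dio1 stood at 90.3 (control), 129 (NASH) and 430 FPKM (TH-treated NASH), 4.76-fold above control (4.64 to 4.87), and Thrsp at 191, 390 and 485 FPKM, 2.54-fold higher. Hr, a corepressor that thyroid hormone induces, was 8.14-fold higher (5.99 to 11.3) at 1.30 FPKM but was below 1 FPKM in control. Gpd2, the mitochondrial glycerophosphate dehydrogenase, was 2.28-fold higher at 11.4 FPKM. Klf9, a transcription factor that the hormone induces in other settings, stood at 29.9, 23.3 and 15.9 FPKM, 1.88-fold lower. The receptors were lower too, Thra at 5.77, 7.40 and 4.09 FPKM and Thrb at 6.43, 6.69 and 4.64 FPKM, 1.41-fold and 1.39-fold below control.

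**Figure D5:**
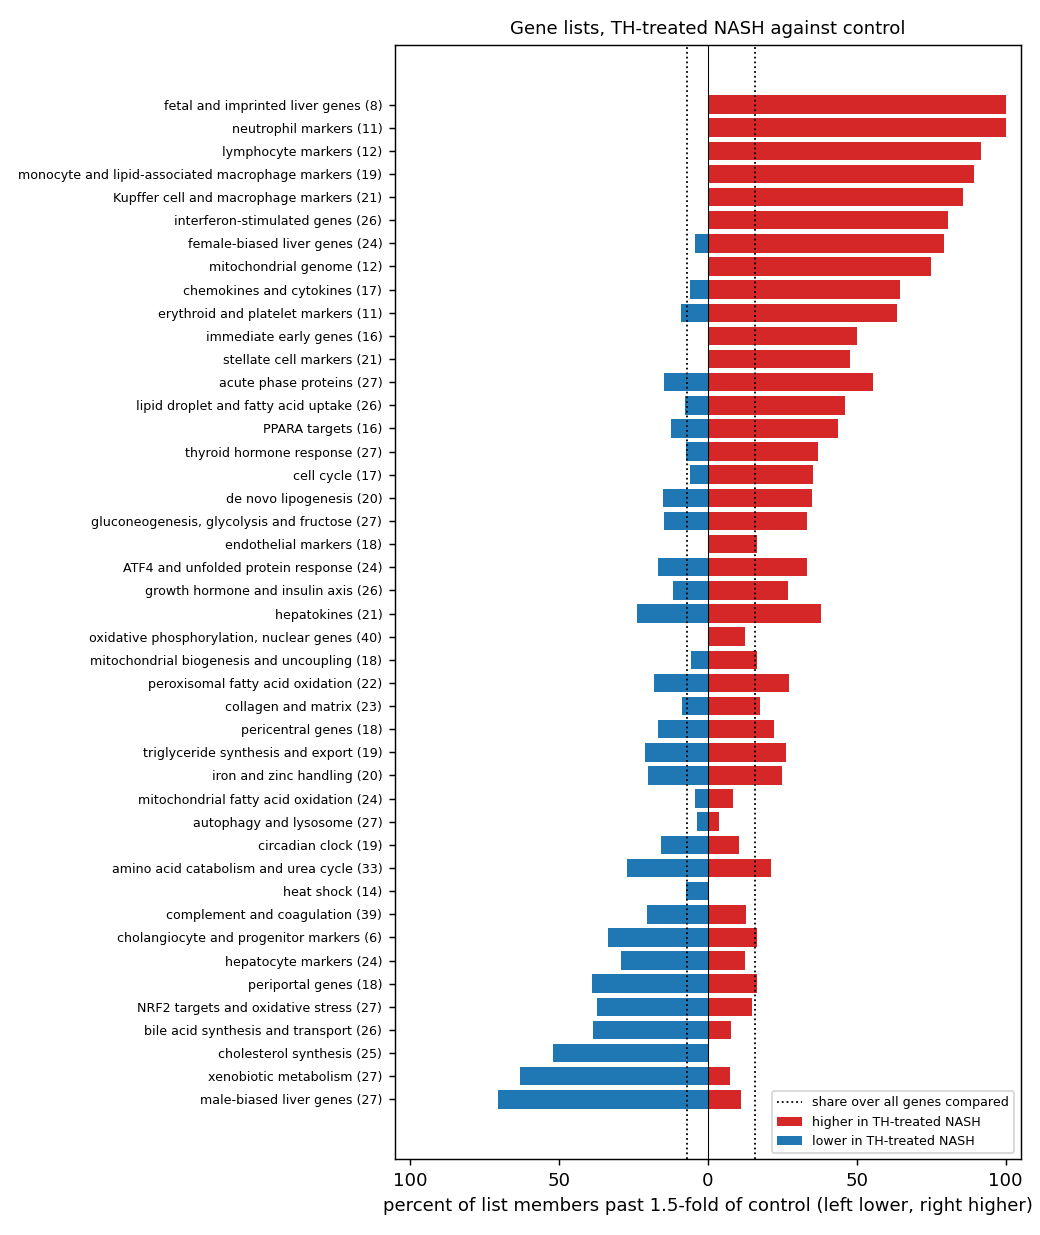
Percent of the members of each gene list (number of members in brackets) that were at least 1.5-fold higher (red, to the right) or lower (blue, to the left) in TH-treated NASH than in control, with dotted lines at the shares of all genes compared, 15.8% and 6.98%. Kupffer cell and interferon lists lie far to the right (as do neutrophil, lymphocyte, female-biased and fetal lists, many of whose members reached 1 FPKM after treatment but not in control), and xenobiotic, male-biased and cholesterol lists far to the left.

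Lipid lists lay on both sides of control. Droplet and uptake genes had 12 of 26 higher and 2 lower (median 0.42). Fabp4 and Fabp5, fatty acid binding proteins, stood 3.76-fold and 3.03-fold higher, Plin5, a droplet protein of oxidative tissue, 2.31-fold, and the lipases Pnpla2 and Lpl 2.23-fold and 3.23-fold. De novo lipogenesis had 7 of 20 higher and 3 lower (median 0.50). Pnpla3, a droplet lipase with a lipogenic promoter, stood at 0.217, 1.05 and 4.85 FPKM, 22.3-fold higher (16.99 to 29.9), and Elovl6, a fatty acid elongase, was 2.04-fold higher, while Acly, the ATP citrate lyase, was 2.30-fold lower and Elovl3 2.70-fold lower. In triglyceride synthesis and export 5 of 19 were higher and 4 lower (median 0.36), with Gm6484, now named Angptl8, a lipoprotein lipase regulator raised by feeding, at 56.4, 42.8 and 10.4 FPKM, 5.42-fold lower. PPARA targets had 7 of 16 higher and 2 lower (median 0.39), with Pdk4, which restrains glucose oxidation, 8.95-fold higher (7.79 to 10.3), and Fgf21, a hormone of the fasted liver, 5.37-fold higher (4.64 to 6.25). Ppara, the receptor itself, stood at 28.1, 28.9 and 11.6 FPKM, 2.42-fold lower. Peroxisomal oxidation had 6 of 22 higher and 4 lower (median 0.19, below 0 after TMM scaling). Mitochondrial fatty acid oxidation had 2 of 24 higher and 1 lower (median −0.02), a share below that of all genes on the higher side.

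In cholesterol synthesis none of 25 members was higher and 13 were lower (median difference −0.63, with 19 lower and a median of −1.16 in NASH). Past 2-fold lower in both diet libraries were 3 of the 25, and 5 were past 2-fold in NASH and back within 1.5-fold of control in TH-treated NASH. Idi1, the isopentenyl diphosphate isomerase, stood at 29.2, 2.46 and 9.07 FPKM and Sqle, squalene epoxidase, at 20.7, 1.79 and 7.10 FPKM, so that treated liver lay between NASH and control and 3.22-fold and 2.92-fold below control. Lss, lanosterol synthase, was level between the diet libraries at 4.05 and 4.02 FPKM against 9.997 in control. In bile acid synthesis and transport, 2 of 26 were higher and 10 lower (median −0.30). Abcg5, a subunit of a sterol exporter, stayed high at 27.8, 81.3 and 79.3 FPKM, 2.85-fold above control, whereas Cyp8b1, which sets the hydrophobicity of bile acids, was 2.31-fold lower and Slco1a4, an organic anion importer, 3.23-fold lower.

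Xenobiotic and male-biased genes stood mostly below control and female-biased genes mostly above it. Of 27 genes of xenobiotic metabolism, 17 were lower and 2 higher (median −1.17), and 10 of the 17 were lower only in the treated liver. Cyp2c29 was 6.73-fold lower, Cyp1a2, the pericentral caffeine hydroxylase, 3.40-fold lower and Cyp2c37 4.41-fold lower. Summed over 20 Ugt genes, which attach glucuronic acid, the level was 1508, 1358 and 727 FPKM, and over 21 glutathione S-transferases of the alpha, mu, pi, theta and related classes 5665, 4416 and 2329 FPKM. Of 27 male-biased genes 19 were lower and 3 higher (median −1.32), with NASH at a median of −1.07, and Slc22a7, an organic anion transporter among the higher genes, was 6.80-fold higher (6.49 to 7.14). Of 24 female-biased genes 19 were higher and 1 lower (median 1.41, NASH 0.37), and 10 of the 19 were past 2-fold only in the treated liver, including Sult2a1, a bile acid sulfotransferase with no control fragment, at 5.99 FPKM and at least 111-fold higher. Of the 24, 14 were below 1 FPKM in control and were counted only because TH-treated NASH reached 1 FPKM, which favours higher values. Of the other 10, 6 were higher. In the list for growth hormone and insulin signalling, 7 of 26 were higher and 3 lower (median −0.06), and the median was 0.11 among genes of at least 5 FPKM. The transcription factor Stat5a was 2.44-fold higher, the oestrogen receptor Esr1 2.43-fold and Foxo1, which insulin restrains, 2.16-fold.

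Markers of blood and immune cells were higher in TH-treated NASH than in both other libraries for several lists. Of 15 neutrophil markers 4 were below 1 FPKM in both libraries, and 7 reached 1 FPKM after treatment but not in control, so that their higher values follow in part from the entry rule. The 4 at 1 FPKM or more in control were all at least 1.5-fold higher. The sum over all 15 markers was 34.0 (control), 71.4 (NASH) and 543 FPKM (TH-treated NASH). Lcn2 alone, with the values given above, made up most of this sum in each library. S100a8 and S100a9, alarmins of neutrophils, stood at 40.7 and 43.7 FPKM against 1.45 and 2.89 in control, 28.1-fold (19.6 to 41.7) and 15.1-fold higher (12.03 to 19.2). The granule genes Camp and Ngp rested on 1 control fragment each, 175-fold (30.9 to 6978) and 335-fold higher (59.5 to 13281), and Mpo on 2 control fragments at 1.80 FPKM. Ly6g, a marker of mature neutrophils, had 7 fragments. Haemoglobin summed to 255, 347 and 1735 FPKM, with Hba-a1 6.93-fold and Hbb-bs 6.70-fold higher, while Alas2, the erythroid enzyme of heme synthesis, stood at 60.5, 44.3 and 22.8 FPKM, 2.65-fold lower. Of 21 lymphocyte markers 9 were below 1 FPKM in both libraries and 8 reached it after treatment but not in control, and the 4 at 1 FPKM or more in control were higher, with the immunoglobulin chain Ighm at 13.8, 16.4 and 104 FPKM. The part of blood and marrow-type cells in the other immune results was not tested.

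Macrophage genes stood above control as well. Of 21 Kupffer cell and macrophage markers 18 were higher and none lower (median 1.47, NASH 1.05). Of these, 11 were off in both diet libraries, and the markers summed to 419, 975 and 1320 FPKM. Clec4f, a lectin of Kupffer cells, stood at 33.8, 59.9 and 130 FPKM, 3.84-fold above control, Timd4, a receptor for dying cells, at 1.91, 3.49 and 8.94 FPKM, and Cd5l, a secreted macrophage protein, at 33.7, 115 and 200 FPKM. The complement chain C1qa was 4.51-fold higher. For monocytes and lipid-associated macrophages 17 of 19 stood higher and none lower (median 1.02, NASH 1.79), or 13 of the 15 at 1 FPKM or more in control. Cd63, a lysosomal tetraspanin, stayed level between the diet libraries at 35.4 and 39.3 FPKM, against 5.25 in control, and Chil3, a chitinase-like protein of alternatively activated macrophages, was 26.2-fold higher (15.6 to 47.5) at 4.68 FPKM. Interferon-stimulated genes had 21 of 26 higher and none lower (median 0.97, NASH 0.87), or 18 higher of the 23 at 1 FPKM or more in control. The GTPase Gbp3 stood at 1.73, 5.27 and 12.3 FPKM and the transcription factor Irf7 at 16.1, 31.2 and 50.5 FPKM. Among chemokines and cytokines 11 of 17 were higher and 1 lower (median 1.13), or 9 higher of the 15 at 1 FPKM or more in control. Cxcl14 stood at 1.48, 3.63 and 51.5 FPKM, 34.9-fold higher (29.6 to 41.4), and Ccl6 was 10.7-fold higher, but the neutrophil attractant Cxcl1 was 2.86-fold lower (2.39 to 3.45).

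Matrix genes lay closer to control. Of 23 collagen and matrix genes at 1 FPKM or more in control or TH-treated NASH, 4 were higher and 2 lower (median 0.13), against 14 higher in NASH (median 0.78), and 17 of the 40 listed genes were below 1 FPKM in both libraries. Lum, the proteoglycan lumican, stood at 2.23, 8.13 and 6.91 FPKM, 3.10-fold above control (2.67 to 3.62), while Col27a1 and Col5a3, minor collagens, were 3.30-fold and 2.89-fold below control. Of 21 stellate cell markers, 10 stood higher and none lower (median 0.48, NASH 0.72). Tgfb1, the fibrogenic cytokine, was 2.59-fold above control but is not among the defining markers of these cells used here. Lrat, which stores vitamin A and is a defining marker, stood at 2.90, 5.43 and 5.11 FPKM. Des, another stellate marker, stood at 1.86, 2.87 and 3.58 FPKM. The stellate markers Pdgfrb, at 1.51, 3.53 and 1.89 FPKM, and Reln, at 2.95, 4.04 and 2.89 FPKM, lay within 1.5-fold of control in TH-treated NASH. For endothelial markers the count was 3 higher of 18 and none lower (median 0.28), near the share of all genes.

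Hepatocyte markers had 3 of 24 higher and 7 lower (median −0.29, NASH −0.41). Alb, albumin, stood at 32685, 20265 and 14907 FPKM, 2.19-fold lower, and Ttr, transthyretin, which carries thyroxine, 1.90-fold lower, while Hpx, the heme scavenger hemopexin, was 2.04-fold higher. Acute phase proteins had 15 of 27 higher and 4 lower (median 0.73, NASH −0.64). Orm2, an orosomucoid, stood at 33.6, 52.2 and 682 FPKM, 20.3-fold higher (19.2 to 21.4). Hamp, which encodes the iron hormone hepcidin, was an exception at 1809, 770 and 810 FPKM, 2.23-fold lower in the treated liver. In zonal lists, 4 of 18 pericentral genes were higher and 3 lower (median −0.15) and 3 of 18 periportal genes higher and 7 lower (median −0.35), with the pericentral glutamine synthetase Glul at 360, 716 and 663 FPKM and the periportal Cyp2f2 2.62-fold lower.

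Transcripts of the mitochondrial genome took 4.50% of control fragments, 4.96% of NASH fragments and 6.72% after treatment. Of its 12 genes compared 9 were higher and none lower (median 0.84, NASH −0.01), with mt-Cytb, a subunit of complex III, at 6909, 9055 and 12689 FPKM and mt-Co2, of complex IV, at 101, 79.6 and 202 FPKM. That median was 0.55 after centring by gene length. For nuclear genes of oxidative phosphorylation, 5 of 40 stood higher and none lower, a share below the 15.8% of all genes higher. The count higher was 2 after TMM scaling and 0 after centring by gene length, and the median, 0.22, was −0.08 after that centring. As deposited, the members named next stood higher. Ndufa2, of complex I, was 1.76-fold higher and Cox5a, of complex IV, 1.66-fold. Among 80 cytosolic ribosomal protein genes, 53 stood higher and none lower; their median, 0.68 against −0.11 in NASH, was 0.37 after centring by gene length.

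Positions follow the deposited table, whose genome build the sources used here do not name. Chromosome 4 holds Mup9 (ENSMUSG00000078686, 60418046 to 60421952), Dio1 (ENSMUSG00000034785, 107291465 to 107307169) and Cyp4a12a (ENSMUSG00000066071, 115299046 to 115332815). Cyp17a1 (ENSMUSG00000003555) lies on chromosome 19 from 46667165 to 46672974, Marco (ENSMUSG00000026390) on chromosome 1 from 120474538 to 120505024, Ddah1 (ENSMUSG00000028194) on chromosome 3 from 145758675 to 145894277, Igfbp1 (ENSMUSG00000020429) on chromosome 11 from 7197782 to 7202546 and Slc39a4 (ENSMUSG00000063354) on chromosome 15 from 76612385 to 76616852. By chromosome, the share of compared genes off in either direction was highest among the autosomes on 19, where the Cyp2c cluster lies, at 13.6%, and lowest on 2, at 3.86%, against 7.99% of all. Of the 13 Cyp2c genes compared, 7 were off lower and 3 higher, against 2.42% of all genes lower and 5.57% higher.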

How the data were processed

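Liver polyA RNA was sequenced in 3 libraries, 1 per group; the comparison used control and TH-treated NASH, with NASH beside them. The submitters' processing notes name TopHat2 and HTSeq, while the strand mode was not given in the sources used here, nor were versions, settings and genome build. FPKM values per gene, with gene length, are as the authors deposited them. FPKM times length came in whole steps: all values above 0 (100%) lay within 0.01 of a whole fragment, which gave the fragments behind each value. Differences are log2(FPKM + 1), with no low-value filter beyond 1 FPKM in either library. Fold intervals are exact 95% conditional binomial (Clopper-Pearson), for counting error only, and a gene at 0 was set against 3 counts. No test was run with 1 library per group.

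The comparison, its members and the 47 gene lists (1097 of 1098 entries matched) were chosen with earlier results of these data known, and families were chosen with values seen. Named genes were, from 5 FPKM in either library and with a regular symbol, the 15 highest and 15 lowest differences, 10 per class and direction, up to 6 per list, and fixed genes; some of these are not reported here. Defining markers and family sums are given beside them. Promoters were aligned with Biopython 1.88 under Python 3.11.15, numpy 2.4.6, pandas 2.3.3 and scipy 1.17.1. The alternatives were pseudocounts, filters, scalings, thresholds, depth and gene sets. Centring by gene length was added after seeing the data.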

Additional observations from a re-analysis of the deposited data

How the results depend on the processing

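The counts given here are, in order, genes higher, lower, remaining higher, remaining lower, higher only and lower only in the treated liver, and back. As deposited they were 639, 278, 200, 34, 258, 186 and 126. With a threshold of 1.5-fold they were 1817, 801, 655, 133, 1110, 631 and 628, and with 4-fold 107, 41, 9, 2, 47, 19 and 13. With a pseudocount of 5 FPKM they were 227, 125, 50, 18, 115, 82 and 40, and 64.5% of calls were higher. With 0.1 FPKM, 1145, 454, 490 and 61 for the first 4, 301 lower only and 195 back. Among genes of at least 5 FPKM, 168 were higher only and 71 back. With a narrower band taken as near control, 155 were higher only, 116 lower only and 67 back. Scaling moved the balance: 62.2% of calls were higher with equal totals (537 and 327) and 63.3% without the 50 most abundant genes, 55.2% with median-of-ratios and 53.8% with TMM scaling, and with either of the last 2, 54 genes remained lower. After centring by gene length, 52 remained lower, 158 were higher only and 51.2% were higher. Centring fixes the median difference of all genes at 0.00, and beyond that the cause of these moves was not tested. The list of neighbouring tissue markers, with 5 members, had a median of 0.61 whose sign turned with no filter (3 members higher) and with 4 scalings (2 higher each). As deposited, 3 members were higher and 2 were past 2-fold lower. The listed genes summed to 2071 (control), 1501 (NASH) and 308 FPKM (TH-treated NASH). Ratios were recomputed for 303 of the 309 named genes, and none past 2-fold changed direction under the scalings, thinning or centring by gene length. Each scaling multiplied all ratios by a common factor that was too small to turn a ratio past 2-fold. Centring shifted genes of like length together by small amounts. The lack of a change in direction was thus largely set in advance and is no check of the ratios. No paired analysis was possible because each group holds 1 library. Depth limits a 2 kb gene with no fragment to at most 0.0275 FPKM in control and 0.0392 in TH-treated NASH.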

Other observations

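Several groups not described above also held members far from control. Their counts stand against 15.8% of all genes past 1.5-fold higher and 6.98% lower, and several lay near those shares. The ATF4 and unfolded protein response list had 8 higher and 4 lower of 24, or 5 higher of the 21 at 1 FPKM or more in control. Its median, 0.13, changed sign under 4 settings. Psat1, of serine synthesis, stood at 0.273 (control), 1.15 (NASH) and 4.82 FPKM (treated), 17.6-fold above control (12.7 to 25.1), and Phgdh, the first enzyme of that path, at 0.165, 0.258 and 1.34 FPKM. Both were below 1 FPKM in control and were compared only because TH-treated NASH reached 1 FPKM. Heat shock genes had 1 of 14 lower, near the share of all genes, and none higher. The lower member, the small chaperone gene Hspb1, stood at 100.1, 139 and 26.2 FPKM, 3.83-fold lower. Immediate early genes had 8 of 16 higher and none lower (median 0.60), or 6 higher of the 14 at 1 FPKM or more in control. Egr1 stood at 5.74, 2.45 and 26.2 FPKM, 4.57-fold above control. Among cell cycle genes 6 of 17 were higher and 1 lower, or 2 higher of the 10 at 1 FPKM or more in control, with Ccnd1, cyclin D1, at 7.95, 23.3 and 40.4 FPKM.

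In amino acid catabolism 7 of 33 members were higher and 9 lower. The transaminases Tat and Got1 were 2.14-fold and 2.12-fold higher, while Otc, of the urea cycle, was 2.55-fold lower. Of 19 clock genes 2 were higher and 3 lower (median −0.32), with the repressor Nr1d1 2.03-fold lower. Complement and coagulation genes had 5 of 39 higher and 8 lower, with Masp1, a lectin pathway protease, 3.21-fold lower. The 6 MHC class II genes compared summed to 59.4, 254.9 and 100.4 FPKM. Of 13 genes in the fetal and imprinted list 5 were below 1 FPKM in both libraries and 3 reached it after treatment but not in control, and the 5 at 1 FPKM or more in control were higher. Among the 3 was H19, an imprinted noncoding RNA, at 0.0721, 1.76 and 1.63 FPKM, 22.6-fold above control (11.6 to 50.5) on 9 control fragments. Other lists are given by their counts. NRF2 targets had 4 of 27 higher and 10 lower, hepatokines 8 of 21 and 5, genes of glucose and fructose metabolism 9 of 27 and 4, iron and zinc genes 5 of 20 and 4, mitochondrial biogenesis 3 of 18 and 1, autophagy 1 of 27 and 1, and cholangiocyte markers 1 of 6 and 2.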
